A study of Mus musculus with 15 samples.

Results

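The genes described here are 37 genes of the major histocompatibility complex (MHC) and of antigen processing, taken from the raw count table by gene symbol out of 45706 genes. They divide into 24 genes of the class I pathway, 10 genes of the class II pathway and 3 subunits of a DNA-binding complex that serves both. All 37 passed the filter on low counts and were among the 18423 genes tested. The libraries are bulk RNA-seq of regulatory T cells (Tregs, CD4+ T cells marked by Foxp3 that hold immune responses in check), sorted by a Foxp3 reporter from adult C57BL/6 mice. Tested mice are named RelB-dDC (dDC below) and are compared with littermate controls, and both carry the Foxp3 reporter. Peritoneal cavity Tregs gave 2 dDC and 2 control libraries, thymus Tregs 2 dDC and 3 control libraries, and spleen Tregs 3 dDC and 3 control libraries. The labels do not spell out RelB-dDC, which in this field denotes deletion of Relb in dendritic cells, so that the sorted Tregs would not be the cells in which the gene is deleted. The labels name neither the promoter that drives the deletion nor the animals behind each library, so p-values measure the spread between these samples, which may be technical.

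MHC class I molecules carry peptides from the cytosol on the surface of nearly all nucleated cells, where CD8+ T cells read them. The immunoproteasome cuts the peptides, the TAP transporter moves them into the endoplasmic reticulum, chaperones load them onto a heavy chain paired with B2m, and the coactivator Nlrc5 drives the genes of this chain of steps. MHC class II molecules carry peptides from endosomes to CD4+ T cells, are driven by the coactivator Ciita, and in the mouse are a property of B cells, dendritic cells, macrophages and thymic epithelium, while mouse T cells are known to make little of them.

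Total counts ran from 15714288 to 24332045 per library, and values are given as CPM, the counts relative to the library total after scaling by edgeR's trimmed mean of M values. The 6 Treg genes checked, Foxp3 among them at 179 to 327 CPM, exceeded 1 CPM in all 15 libraries. They summed to 3415 to 4880 CPM in the peritoneal cavity, 4664 to 5519 in the thymus and 4617 to 5019 in the spleen. At an edgeR adjusted p under 0.05, 1 of the 6 was lower in peritoneal than in splenic Tregs and 3 than in thymic Tregs. Of the 6, 0 were higher, and of all genes 1.66% and 2.58% were lower. Relb lay between 7.72 and 37.6 CPM and was not called in the average over tissues (log2 difference -0.14 ± 0.19, SE; edgeR adjusted p = 0.936), which checks no deletion in another cell type. One library stood apart on genes of other cells: peritoneal control 2 had 1187 CPM of Lyz2, a macrophage gene, against 46.2 to 189.7 CPM in the other peritoneal libraries, and 158 CPM of Cd209a, a dendritic cell gene, against 3.86 to 28.3 CPM. The class II medians and most class II gene differences that include the peritoneal cavity are therefore given with and without it.

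B2m and H2-K1 were high in every library, whereas the class II chains and Cd74 ranked the tissues, with the peritoneal cavity highest by median and the thymus lowest. B2m, the light chain of all class I molecules, had 5659 and 6512 CPM in dDC and 5795 and 6013 CPM in control peritoneal Tregs. In the thymus it had 6576 and 7707 CPM in dDC and 7229, 6123 and 6450 CPM in control Tregs, and in the spleen 7212, 7512 and 7660 CPM in dDC and 6904, 6303 and 7514 CPM in controls. All 6 groups thus lay within a narrow band. H2-K1, a classical class I heavy chain, had 3775 and 4794 CPM in dDC and 4423 and 3822 CPM in control peritoneal Tregs, 5122 and 4878 CPM in dDC and 4992, 3971 and 5139 CPM in control thymic Tregs, and 4894, 5439 and 5320 CPM in dDC and 4477, 4491 and 5569 CPM in control splenic Tregs. The other classical heavy chain, H2-D1, varied far more within groups, for example 4536 and 1155 CPM in the 2 dDC thymus libraries. Per kilobase of exon, which allows levels to be compared between genes, the median CPM of B2m was 6865 in the peritoneal cavity, 7646 in the thymus and 8561 in the spleen, and that of H2-K1 was 1581, 1914 and 1958 in the same order.

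H2-Aa, the alpha chain of the I-A class II molecule, had 577 and 1193 CPM in dDC and 492 and 2150 CPM in control peritoneal Tregs. In thymic Tregs it had 15.8 and 2.50 CPM in dDC mice and 4.38, 19.03 and 2.41 CPM in controls, and in splenic Tregs 148, 178 and 292 CPM in dDC mice and 151, 418 and 340 CPM in controls. The 3 tissues did not overlap in this gene, with the peritoneal cavity highest and the thymus lowest. Its partner H2-Ab1, the I-A beta chain, had 288, 682, 290 and 1318 CPM in the 2 dDC and 2 control peritoneal libraries, 0.442 to 7.42 CPM in the 5 thymus libraries and 83.9 to 320 CPM in the 6 spleen libraries. H2-Eb1, the E beta chain, had 249.9, 680, 299.6 and 1222 CPM in the same peritoneal libraries, 2.30 to 11.1 CPM in the thymus and 76.0 to 269 CPM in the spleen. Peritoneal and splenic values of these 2 beta chains overlapped, and all thymic values lay below both. C57BL/6 mice lack a functional E alpha gene, and H2-Ea-ps, its pseudogene, had reads in 1 library (0.257 CPM).

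Cd74, the invariant chain that escorts class II molecules, was the highest class II gene at all sites. It had 3188 and 5962 CPM in dDC and 2795 and 11750 CPM in control peritoneal Tregs, 248 and 221 CPM in dDC and 239, 239 and 131 CPM in control thymic Tregs, and 1182, 1531 and 1935 CPM in dDC and 1032, 2945 and 2097 CPM in control splenic Tregs. Per kilobase, its median was 3245 CPM in the peritoneal cavity, 169 in the thymus and 1229 in the spleen, against 472, 2.34 and 126 CPM for H2-Aa. In thymic Tregs Cd74 thus stayed at 131 CPM or more while the chains it escorts were at most 19.03 CPM. The ratio of Cd74 to the summed CPM of the 3 class II chains was 2.33 to 2.86 in the peritoneal cavity, 6.35 to 34.4 in the thymus and 2.92 to 3.75 in the spleen.

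**Figure D1:**
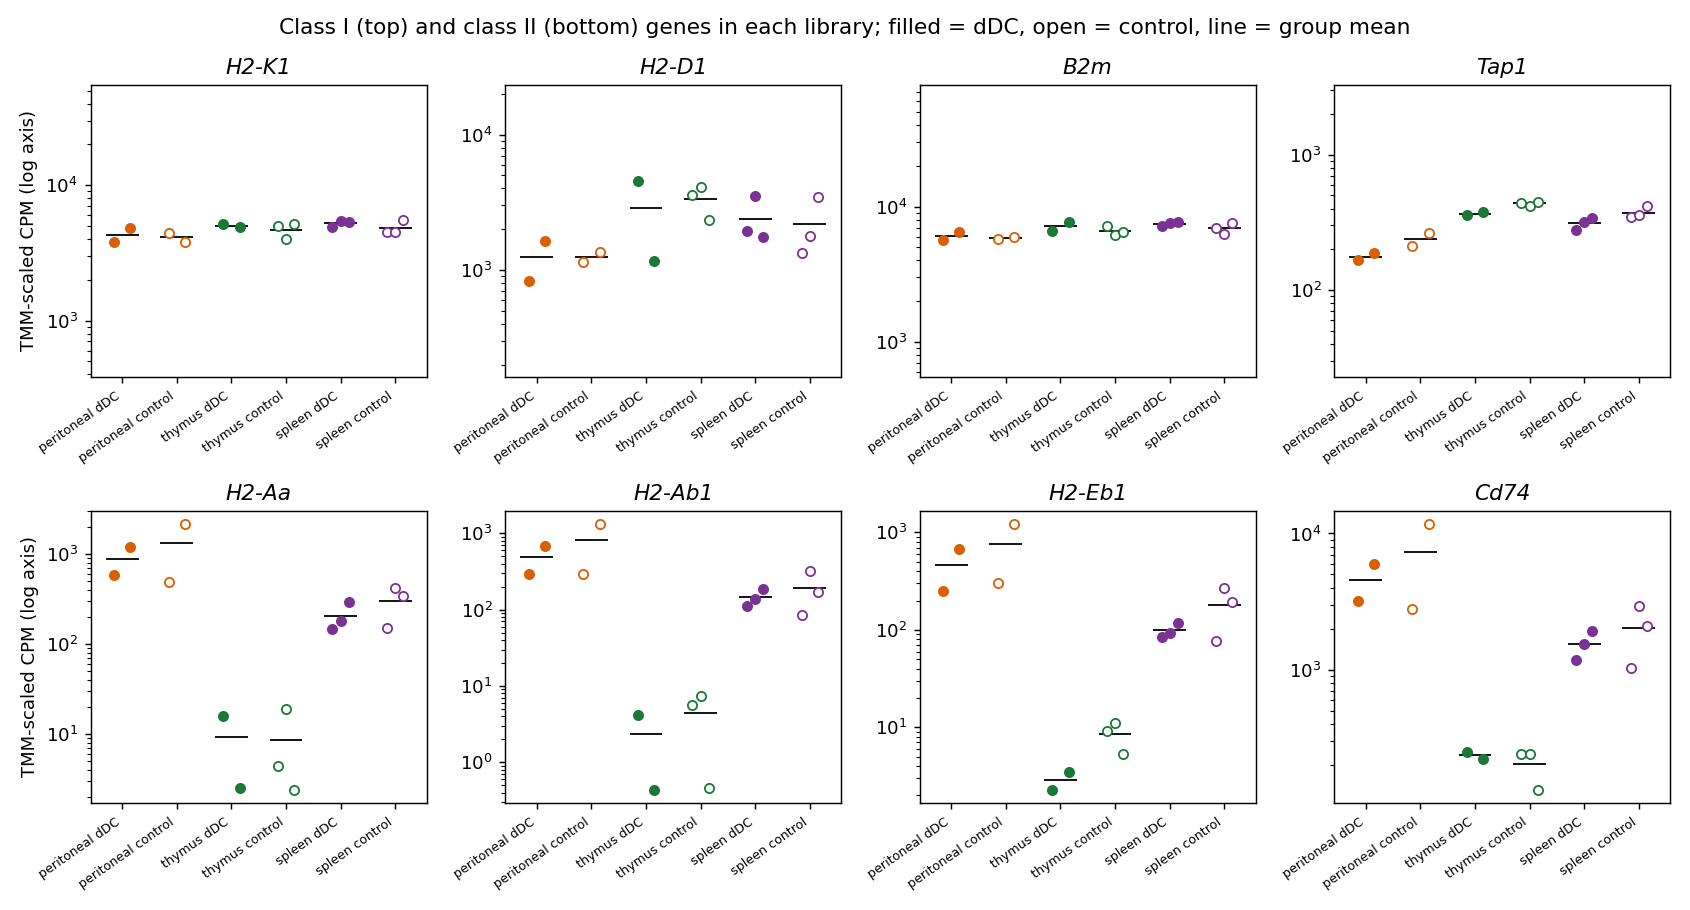
CPM on a log axis for H2-K1, H2-D1, B2m and Tap1 (class I, top) and H2-Aa, H2-Ab1, H2-Eb1 and Cd74 (class II, bottom) in each library, by tissue and genotype, with dDC left of control and a short line at each group mean. The groups of H2-K1 and B2m lie at much the same height, whereas the 4 class II genes are lowest in the thymus and highest in the peritoneal cavity.

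The difference between the mean log2 CPM of the classical class I chains (H2-K1, H2-D1 and B2m) and that of the class II chains with Cd74 put the contrast between both pathways in 1 number for each library. It averaged 1.79 ± 0.46 in dDC and 1.35 ± 1.47 in control peritoneal Tregs (SD, n = 2 each). In thymic Tregs it averaged 8.90 ± 0.49 in dDC (n = 2) and 8.49 ± 1.02 in control mice (n = 3), and in splenic Tregs 4.13 ± 0.44 in dDC and 3.57 ± 0.81 in control mice (n = 3 each). The tissues did not overlap in this measure, which ran from 0.31 to 2.39 in the peritoneal cavity, from 7.54 to 9.56 in the thymus and from 2.69 to 4.43 in the spleen. Genotype means within a tissue differed by less than 1 SD of the control libraries. The lowest value, 0.31, was that of peritoneal control 2. Most of the range came from the class II side, whose mean log2 CPM ran from 2.49 to 11.3 over all libraries, while that of class I ran from 11.3 to 12.4.

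**Figure D2:**
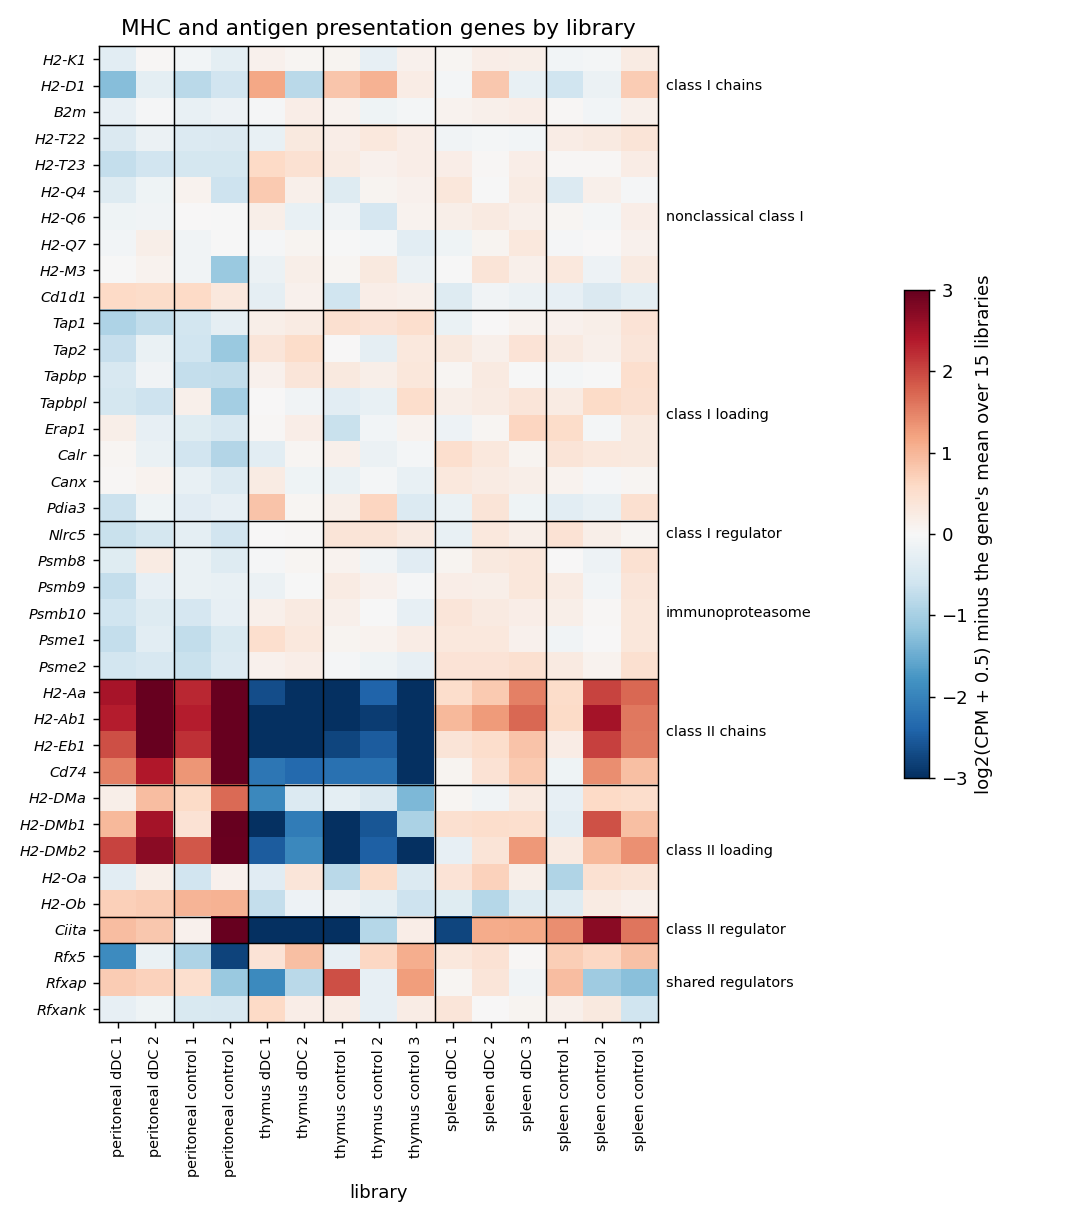
All 37 genes in the 15 libraries, coloured by log2(CPM + 0.5) relative to the gene's mean over libraries, with colours ending at 3 on either side. The class II chains, Cd74 and H2-DMb2 are above their mean in the peritoneal libraries and below it in the thymus, while most class I rows stay near their mean and tend to be below it in the peritoneal cavity.

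Promoters were set side by side because class I and class II genes are known to share some control elements and not others. RefSeq (GRCm38.p6) gave promoter windows, from 250 bases before to 50 bases after a start, for 29 of the 37 genes, and where several starts were listed the first was used. Missing from it were H2-Ab1, Tap2, Tapbpl, Nlrc5, Ciita, Cd74, Cd1d1 and Rfxap. The Y box core GATTGG and the X1 box core GCAAC, parts of the element at which the Rfx complex and NF-Y assemble, were searched on both strands with the X2 box or site alpha core TGACG, the NF-kappaB site GGGATTCCC and the interferon-stimulated response element GTTTCACTT. Among all 32851 promoters, 16.1% held GATTGG, 35.2% GCAAC, 20.8% TGACG, 0.353% GGGATTCCC and 0.399% GTTTCACTT. Of 7 class II promoters, 6 held GATTGG, 5 GCAAC and 1 TGACG, and 0 held GGGATTCCC or GTTTCACTT. Of 20 class I promoters, 12 held GATTGG, 7 GCAAC, 12 TGACG, 4 GGGATTCCC and 7 GTTTCACTT. A match is only a description of the letters, and such short cores occur by chance in many promoters.

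Shown first are 3 class I genes, the heavy chain H2-K1 (chr17:34000298-34000597, minus strand), B2m (chr2:122147437-122147736, plus strand) and Tap1 (chr17:34187306-34187605, plus strand), each 5′ to 3′ in the direction of the gene, with capitals for the motifs named above or their reverse complements.
H2-K1: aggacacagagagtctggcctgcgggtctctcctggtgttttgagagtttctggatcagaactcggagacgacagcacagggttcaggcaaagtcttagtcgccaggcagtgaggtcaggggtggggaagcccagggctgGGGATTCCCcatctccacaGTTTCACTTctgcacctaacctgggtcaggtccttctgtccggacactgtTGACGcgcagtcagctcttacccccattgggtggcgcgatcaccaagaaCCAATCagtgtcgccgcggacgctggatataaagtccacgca
B2m: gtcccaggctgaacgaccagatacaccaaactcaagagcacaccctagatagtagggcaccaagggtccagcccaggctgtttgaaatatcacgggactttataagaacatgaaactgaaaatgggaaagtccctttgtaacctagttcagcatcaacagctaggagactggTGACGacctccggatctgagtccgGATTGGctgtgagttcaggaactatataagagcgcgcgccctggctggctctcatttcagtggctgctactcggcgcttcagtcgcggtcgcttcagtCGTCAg
Tap1: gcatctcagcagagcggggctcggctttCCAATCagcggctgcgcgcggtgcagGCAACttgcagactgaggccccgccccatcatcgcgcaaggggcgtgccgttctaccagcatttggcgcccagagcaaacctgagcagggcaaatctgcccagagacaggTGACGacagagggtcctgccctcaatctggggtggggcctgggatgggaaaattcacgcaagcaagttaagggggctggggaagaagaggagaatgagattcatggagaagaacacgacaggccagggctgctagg
In H2-K1 the NF-kappaB site began at -110, the interferon-stimulated response element at -91 and TGACG at -41 from the start. GATTGG on its reverse strand lay past the annotated start, at 8 to 13. In B2m, TGACG began at -78 and GATTGG at -54, and TGACG on the reverse strand lay past the start, at 44 to 48. In Tap1, GATTGG on the reverse strand began at -222, GCAAC at -196 and TGACG at -86, and this window shares 275 bases with that of the neighbouring immunoproteasome gene Psmb9, which is read from the other strand.

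Shown next are 3 class II genes, which differ in how far they followed the tissue: H2-Aa (chr17:34287774-34288073, minus strand) and H2-Eb1 (chr17:34305617-34305916, plus strand), both far lower in thymic than in other Tregs, and H2-Ob (chr17:34238655-34238954, plus strand), which overlapped between thymus and spleen. Capitals mark the same motifs.
H2-Aa: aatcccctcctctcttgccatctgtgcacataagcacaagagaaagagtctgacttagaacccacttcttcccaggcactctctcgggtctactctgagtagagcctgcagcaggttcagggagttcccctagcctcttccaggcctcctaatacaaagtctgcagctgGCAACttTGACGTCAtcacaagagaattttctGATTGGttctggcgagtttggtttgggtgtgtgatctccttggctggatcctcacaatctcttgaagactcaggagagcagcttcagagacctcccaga
H2-Eb1: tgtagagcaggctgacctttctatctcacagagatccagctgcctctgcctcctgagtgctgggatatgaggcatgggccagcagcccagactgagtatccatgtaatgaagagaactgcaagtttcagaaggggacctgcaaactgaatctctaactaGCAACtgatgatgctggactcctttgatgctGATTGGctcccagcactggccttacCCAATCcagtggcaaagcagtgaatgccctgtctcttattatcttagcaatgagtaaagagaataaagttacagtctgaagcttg
H2-Ob: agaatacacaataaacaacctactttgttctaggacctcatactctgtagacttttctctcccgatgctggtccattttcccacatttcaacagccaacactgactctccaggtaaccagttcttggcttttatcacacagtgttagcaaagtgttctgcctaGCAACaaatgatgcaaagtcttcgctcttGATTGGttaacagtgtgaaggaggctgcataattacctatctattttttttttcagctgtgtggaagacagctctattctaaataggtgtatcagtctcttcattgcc
GCAAC was followed by GATTGG at a like distance in all 3, at -81 and -49 in H2-Aa, at -91 and -60 in H2-Eb1 and at -87 and -58 in H2-Ob. H2-Ob thus held the same pair of cores as H2-Aa and H2-Eb1. Among the class II promoters not shown, H2-Oa held both cores. H2-DMb1 and H2-DMb2 held GATTGG without GCAAC. H2-DMa held GCAAC without GATTGG at the first listed start, which was the one counted, and GATTGG without GCAAC at the other. Any part of these cores in the tissue differences was not tested. H2-Aa also held TGACG on both strands, where the letters overlap.

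Peritoneal Tregs were compared with splenic Tregs over both genotypes with equal weight, which asks how the pathway differs between the sites. The class II genes H2-Eb1, Cd74, H2-DMb2 and H2-Ob and the lipid-presenting molecule Cd1d1 were higher in peritoneal Tregs, and 11 class I genes were lower, by 1.38-fold to 1.88-fold. Of all genes tested, 1.23% were called higher and 1.66% lower at an edgeR adjusted p under 0.05, against 5 and 11 of the 37. By pathway, 1 of 24 class I genes was higher and 11 were lower, with a median log2 difference of -0.51, and 4 of 10 class II genes were higher and 0 lower, with a median of 1.70 (also 1.70 without Ciita, and 1.07 without peritoneal control 2). The median over all genes was -0.03. By edgeR no shared Rfx subunit was called, with 2 of 3 at an unadjusted p under 0.05, against 2650 of all 18423 genes. DESeq2 called Rfx5 lower (-1.92, adjusted p = 0.00954).

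H2-T23, the heavy chain known as Qa-1, which binds leader peptides and is read by natural killer receptors, had the smallest adjusted p of the class I genes. It had 514 and 568 CPM in dDC and 582 and 581 CPM in control peritoneal Tregs, against 857, 914 and 979 CPM as the lowest, median and highest of the 6 spleen libraries. All peritoneal values lay below all splenic ones, and the difference was -0.71 ± 0.07 in log2 (SE, edgeR adjusted p = 0.000153). How many of all genes have separate ranges between tissues was not counted, so such separation only describes the gene. H2-T22, a nonclassical heavy chain, had 208 to 251 CPM in the peritoneal cavity and 264 to 367 CPM in the spleen (log2 difference -0.47 ± 0.10, edgeR adjusted p = 0.0248). Reads that fit both H2-T22 and its relative H2-T10 are an uncertainty here, since 43.9% of the 50-base windows of H2-T22 transcripts recur in other genes, and the share was 28.8% for H2-T23. Leaving out 1 of 7 libraries ended the H2-T22 call, for example peritoneal dDC 1 (-0.40, adjusted p = 0.115).

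Of the 8 peptide transporter and loading genes, 4 were called lower in peritoneal Tregs and 0 higher. Tap1, one subunit of the transporter, had 166 and 188 CPM in dDC and 213 and 263 CPM in control peritoneal Tregs, against 276, 342 and 417 CPM as the lowest, median and highest in the spleen. The ranges were separate, with a log2 difference of -0.73 ± 0.09 (edgeR adjusted p = 0.00129). Its partner Tap2 had 69.6 to 133 CPM in the peritoneal cavity and 169 to 204 CPM in the spleen (-0.91 ± 0.15, adjusted p = 0.00677). Tapbp (tapasin), which bridges the transporter and the heavy chain, had 304 to 477 CPM and 487 to 723 CPM at the same sites (-0.64 ± 0.13, adjusted p = 0.0183), and Calr, a lectin chaperone, had 115 to 220 CPM and 224 to 302 CPM (-0.71 ± 0.12, adjusted p = 0.00742). The tapasin relative Tapbpl (-0.80, adjusted p = 0.0892), the peptide trimmer Erap1 (-0.48, 0.284), the chaperone Canx (-0.26, 0.14) and the disulfide isomerase Pdia3 (-0.37, 0.577) did not pass. The Tapbp call was lost without peritoneal dDC 1 (adjusted p = 0.0881) or peritoneal control 2 (0.0715), and the Calr call without peritoneal dDC 2 (0.0504).

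The peptide-cutting side and its regulator shared this direction. Psme2, a subunit of the proteasome activator PA28, had 71.8 and 75.1 CPM in dDC and 66.4 and 79.4 CPM in control peritoneal Tregs, against 113, 140 and 146 CPM as the lowest, median and highest in the spleen. The ranges were far apart for so small a spread (-0.89 ± 0.10, edgeR adjusted p = 0.000677), although 54.9% of its windows also occur in the near copy Psme2b. The other PA28 subunit, Psme1 (-0.72 ± 0.12, adjusted p = 0.0053), and the catalytic immunoproteasome subunits Psmb10 (-0.66 ± 0.10, 0.00405) and Psmb9 (-0.55 ± 0.11, 0.0222) were lower, while Psmb8 was not called (-0.34 ± 0.15, 0.315). Nlrc5, the class I coactivator, had 185 and 204 CPM in dDC and 242 and 198 CPM in control peritoneal Tregs, against 252, 335 and 401 CPM as the lowest, median and highest in the spleen (-0.69 ± 0.12, adjusted p = 0.0079). All 4 peritoneal values lay below all 6 splenic ones. The Psmb9 call was lost without any 1 of 6 libraries, with adjusted p up to 0.0941 (without peritoneal dDC 1).

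The classical chains and the remaining heavy chains did not pass in this comparison. B2m differed by -0.26 ± 0.07 in log2 (edgeR adjusted p = 0.0877), H2-K1 by -0.26 ± 0.10 (0.251) and H2-D1 by -0.87 ± 0.40 (0.352). Among the nonclassical chains, H2-Q4 (-0.30), H2-Q6 (-0.20), H2-Q7 (-0.07) and H2-M3 (-0.41), which presents formylated peptides, had adjusted p of 0.361 or more. Cd1d1, which presents lipids to natural killer T cells, went the other way, with 213 and 207 CPM in dDC and 215 and 175 CPM in control peritoneal Tregs, against 104, 116 and 131 CPM as the lowest, median and highest in the spleen. These ranges were separate (0.80 ± 0.15, edgeR adjusted p = 0.0164), but the call was lost without peritoneal dDC 1 (0.0549) or peritoneal dDC 2 (0.0588), and 25.1% of its windows also occur in Cd1d2.

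The class II differences between peritoneal and splenic Tregs were larger and less certain. H2-Eb1 was 2.16 ± 0.43 higher in log2 (4.46-fold; edgeR adjusted p = 0.0204), Cd74 1.70 ± 0.38 (0.0361) and H2-DMb2, a beta chain of the peptide exchanger H2-M, 1.70 ± 0.38 (0.0364). H2-Ob, the beta chain of the exchange inhibitor H2-O, had 231 and 239 CPM in dDC and 285 and 287 CPM in control peritoneal Tregs, against 77.2, 108 and 166 CPM as the lowest, median and highest in the spleen. Its ranges were separate, and it had the smallest adjusted p of the class II genes (1.13 ± 0.16, edgeR adjusted p = 0.00253). H2-Aa (2.11 ± 0.62, adjusted p = 0.117), H2-Ab1 (1.91 ± 0.64, 0.178), H2-DMa (0.71 ± 0.33, 0.365), H2-DMb1 (1.86 ± 0.88, 0.366), H2-Oa (-0.39 ± 0.34, 0.696) and Ciita (0.62 ± 0.95, 0.867) did not pass. Without peritoneal control 2, H2-Ob kept its value (1.13, adjusted p = 0.0109), whereas H2-Eb1 had 1.49 (0.111), Cd74 1.01 (0.203) and H2-DMb2 1.37 (0.167). Those 3 calls also ended without peritoneal dDC 2, with adjusted p of 0.108, 0.167 and 0.16. H2-Eb1 and Cd74 were also lost by limma (0.0507 and 0.115) and with no filter on low counts (0.0529 and 0.118). With all libraries, H2-Aa was called by limma (0.047) and DESeq2 (0.032). The edgeR log2 difference without peritoneal control 2 was 1.40 for H2-Aa, 1.18 for H2-Ab1 and 0.37 for H2-DMa. It was 0.38 for H2-DMb1, -0.59 for H2-Oa and -0.85 for Ciita, whose sign thus changed.

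**Figure D3:**
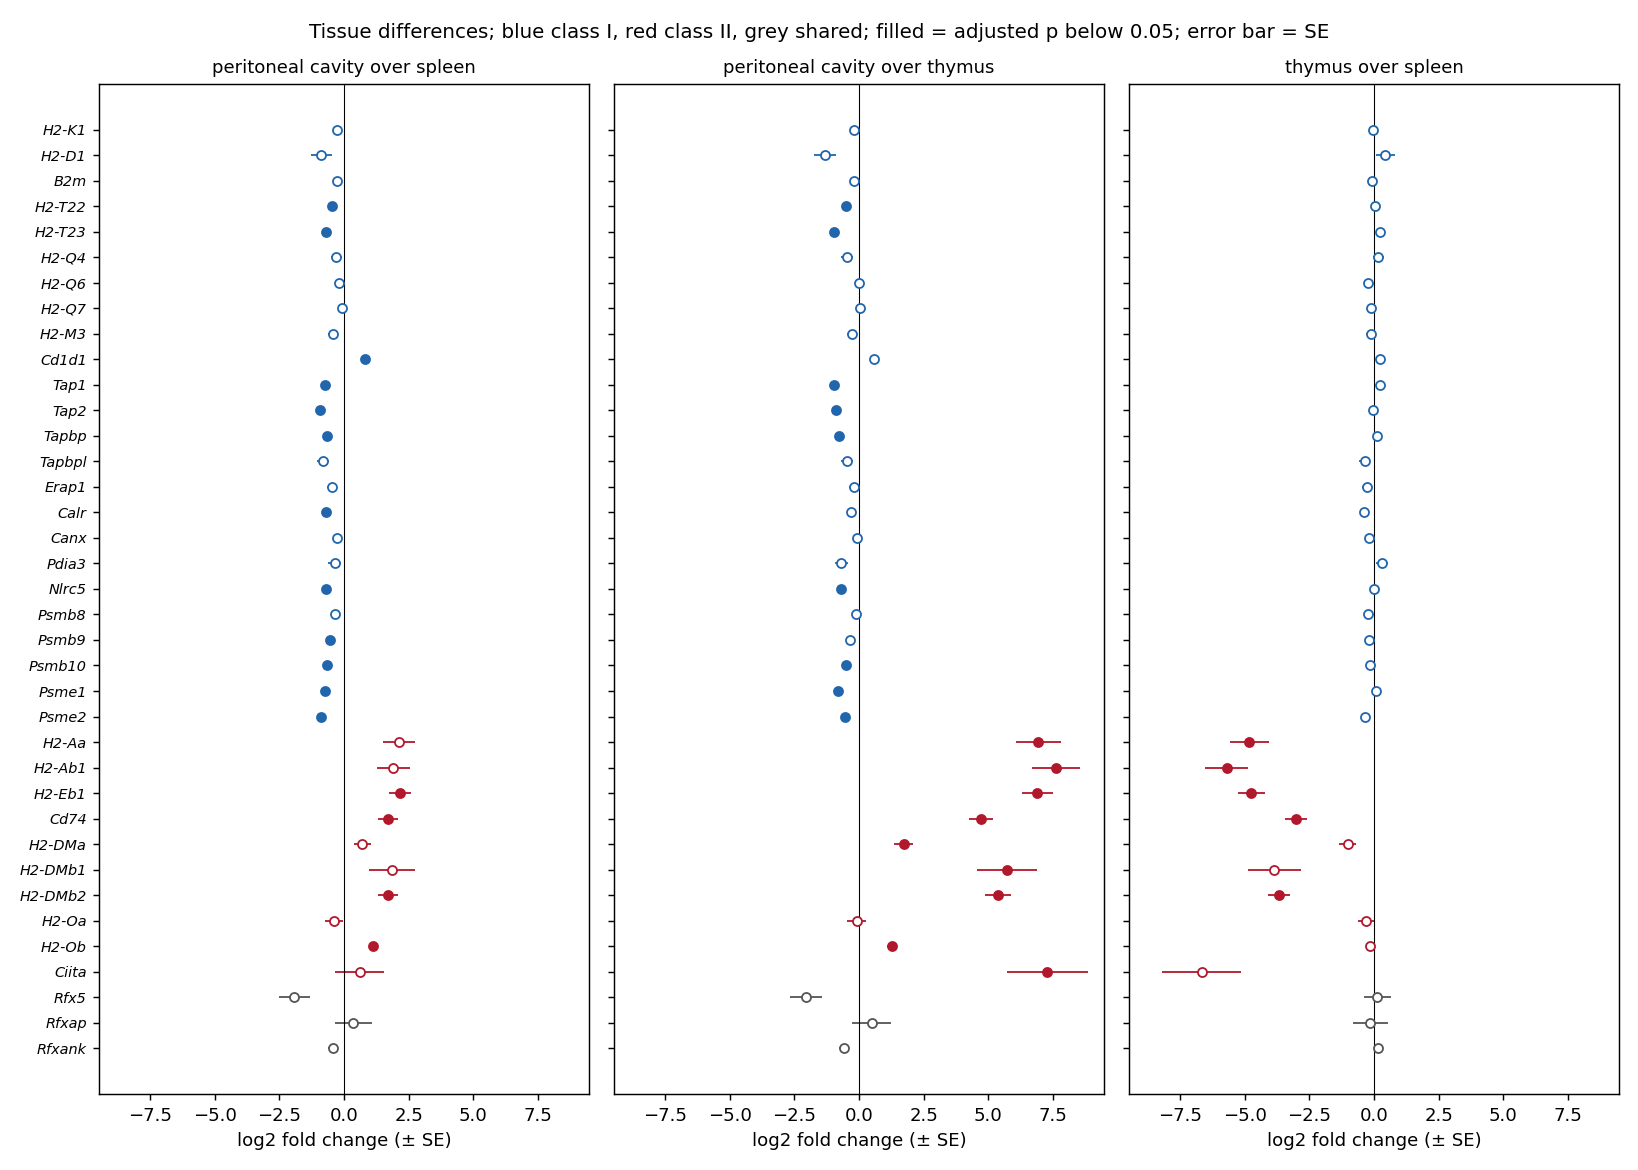
Log2 differences with standard errors for the 37 genes in peritoneal over splenic, peritoneal over thymic and thymic over splenic Tregs, filled where the edgeR adjusted p is under 0.05. Most class I genes, but not Cd1d1, lie slightly left of 0 in both panels with the peritoneal cavity and around 0 in the third, while class II differences reach 7.60 for H2-Ab1 and H2-Oa stays between -0.39 and -0.09.

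Between thymic and splenic Tregs 0 of 37 genes were called higher and 5 lower, all of them class II genes. Of all genes, 0.418% were called higher and 0.901% lower. H2-Eb1 differed by -4.74 ± 0.53 in log2 (26.7-fold lower; edgeR adjusted p = 0.00108), H2-DMb2 by -3.66 ± 0.44 (0.00162), Cd74 by -3.02 ± 0.42 (8.11-fold lower; 0.00335), H2-Ab1 by -5.69 ± 0.83 (0.00495) and H2-Aa by -4.82 ± 0.76 (0.0076). In all 5 the highest thymic library lay below the lowest splenic one, but the share of all genes that do so was not counted. The median log2 difference was -3.75 over the 10 class II genes (-3.66 without Ciita), -0.06 over the 24 class I genes and -0.03 over all genes. None of these 5 calls was lost by leaving out a library, but limma with voom weights kept 1 of them, H2-DMb2, with adjusted p of 0.213 to 0.27 for the rest.

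Not all class II genes were called by edgeR. H2-Ob had 85.6 and 126 CPM in dDC and 123, 114 and 90.8 CPM in control thymic Tregs, against 77.2, 108 and 166 CPM as the lowest, median and highest in the spleen (-0.13 ± 0.15, edgeR adjusted p = 0.835), and H2-Oa had 18.4 to 48.4 CPM and 17.3 to 53.3 CPM at the same sites (-0.30 ± 0.33, 0.814). Both chains of H2-O thus overlapped between thymus and spleen. H2-DMa (-1.02 ± 0.33, 0.198) and H2-DMb1 (-3.84 ± 1.02, 0.106) had separate ranges without passing by edgeR. DESeq2 called both lower in the thymus (adjusted p = 0.0214 for H2-DMa and 0.000119 for H2-DMb1). With no filter on low counts, edgeR also called H2-DMb1 (0.0403). Ciita had 0 and 0 CPM in dDC and 0.274, 2.94 and 6.66 CPM in control thymic Tregs, against 0.427, 14.6 and 40.4 CPM as the lowest, median and highest in the spleen (adjusted p = 0.0692). DESeq2 called Ciita lower in the thymus (adjusted p = 5.72e-07). So did edgeR with no filter on low counts (0.0293) or without spleen dDC 1 (0.0401). No fold is given for Ciita where a group had no reads.

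No class I gene was called between thymus and spleen by edgeR. At an unadjusted p under 0.05 edgeR had 5 of 24, against 2313 of all 18423 genes. DESeq2 called 3 class I genes (H2-T23 at 0.26, Calr at -0.38 and Psme2 at -0.34 in log2). The nearest by edgeR was H2-T23, with 1283 and 1158 CPM in dDC and 1003, 928 and 964 CPM in control thymic Tregs, a difference of 0.25 ± 0.06 (adjusted p = 0.0943). B2m differed by -0.06 ± 0.07 and H2-K1 by -0.05 ± 0.09, both within about 1 standard error of 0. The shared subunits Rfx5 (0.13 ± 0.52), Rfxap (-0.13 ± 0.67) and Rfxank (0.16 ± 0.18) were not called, although Rfx5 and Rfxap had values under 13 CPM in every library.

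Set against the thymus, peritoneal Tregs were higher in 9 genes, all of class II, and lower in 9 genes, all of class I, where 3.03% and 2.58% of all genes were called higher and lower. H2-Ab1 differed by 7.60 ± 0.93 in log2 (edgeR adjusted p = 0.000567), H2-Aa by 6.93 ± 0.86 (0.000622), H2-Eb1 by 6.90 ± 0.60 (4.49e-05), H2-DMb2 by 5.37 ± 0.49 (7.09e-05) and Cd74 by 4.72 ± 0.47 (0.00013). H2-DMb1 (5.71, 0.0125), H2-DMa (1.73, 0.0148), H2-Ob (1.27, 0.00109) and Ciita (0.0212) were higher too, leaving H2-Oa (-0.09 ± 0.36, 0.96) as the class II gene with no call. The median over class II was 5.54 (5.37 without Ciita, and 4.63 without peritoneal control 2), over class I -0.46 and over all genes 0.00. Without peritoneal control 2, the values were 6.86 for H2-Ab1, 6.22 for H2-Aa, 6.23 for H2-Eb1 and 4.03 for Cd74, all with adjusted p of 0.00153 or less. The calls of H2-DMb1 (0.0504), H2-DMa (0.0641) and Ciita (0.0558) were lost without it, and each also without thymus dDC 1 (0.0792, 0.0579 and 0.103 in the same order). By limma the calls of H2-Ab1 (0.0726), H2-DMb1 (0.0729) and Ciita (0.107) were lost. H2-DMb2 differed by 5.03 and H2-Ob by 1.27 in log2 without peritoneal control 2.

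Peritoneal libraries stand in this comparison and in that with the spleen, so the values are not independent. The 9 class I genes lower in peritoneal than in thymic Tregs were H2-T23 (-0.95 ± 0.07, edgeR adjusted p = 1.36e-05), Tap1 (-0.96 ± 0.10, 0.000135), Psme1 (-0.82, 0.00184), Tapbp (-0.77, 0.0048), Nlrc5 (-0.70, 0.00572), Tap2 (-0.88, 0.00658), Psme2 (-0.54, 0.0104), Psmb10 (-0.52, 0.0122) and H2-T22 (-0.51, 0.0123). The last 2 were lost without peritoneal dDC 1, with adjusted p of 0.0594 and 0.0601. By edgeR on all libraries neither comparison called B2m, H2-K1 or H2-D1. B2m was called between peritoneal cavity and spleen by limma (adjusted p = 0.0408) and DESeq2 (0.0345), and H2-D1 between peritoneal cavity and thymus by DESeq2 (0.0352) and by edgeR without thymus dDC 2 (0.0262). Rfx5, the DNA-binding subunit, had 1.13 and 4.78 CPM in dDC and 2.69 and 0.380 CPM in control peritoneal Tregs. It had 4.65 to 12.5 CPM in the thymus (-2.06 ± 0.62, 0.082) and 5.73 to 10.6 CPM in the spleen (-1.93 ± 0.60, 0.138). Rfx5 was called lower against the thymus by limma (adjusted p = 0.0389) and DESeq2 (0.0048), and against the spleen by DESeq2 (0.00954). The edgeR estimates without peritoneal control 1 were -3.06 against the thymus and -2.92 against the spleen.

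Genes that respond to interferon were lower in the same peritoneal libraries. Of 16 interferon-stimulated genes, 10 were lower and 0 higher in peritoneal than in splenic Tregs (median -1.57 in log2) and 13 were lower and 0 higher than in thymic Tregs (median -2.21). Their summed level was 1356 to 1577 CPM in the peritoneal cavity, 3185 to 4926 CPM in the thymus and 2628 to 3275 CPM in the spleen. Among 48 other tested genes of antigen presentation and its control, 1 was higher and 5 lower in peritoneal than in splenic Tregs: Ifngr1, a receptor chain for interferon gamma, by 2.79 (edgeR adjusted p = 4.04e-06), and among the lower genes Irf1 (-1.03, 0.00592), H2-T24 (-1.36, 0.0209), the chaperone Hspa5 (-0.87, 0.0305) and H2-T10 (-0.77, 0.0411). Ifngr1 had 4069 and 3405 CPM in dDC and 3088 and 2053 CPM in control peritoneal Tregs, against 637 to 1069 CPM in the thymus and 326 to 569 CPM in the spleen. The receptor chain was thus high where the class I loading genes were low. The part of interferon signalling in the class I differences was not tested.

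Set against the thymus, 2 of these 48 genes were higher in the peritoneal cavity and 5 lower. Ifngr1 (1.92, edgeR adjusted p = 3.87e-05) and March1, a ubiquitin ligase that takes class II molecules off the surface (0.000256), were higher, while the lower genes included the other receptor chain Ifngr2 (-1.03, 0.00682), H2-T24 (-1.50, 0.00909), the endosomal protease Ctss (-0.99, 0.027) and Irf1 (-0.69, 0.0377). March1 had 13.5 and 66.8 CPM in dDC and 27.6 and 21.7 CPM in control peritoneal Tregs and no read in 4 of 5 thymus libraries. Between thymus and spleen, Ifngr1 (0.87, 0.0117) and Ifngr2 (0.96, 0.0135) were higher and March1 lower.

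Class II transcripts moved with the markers of B cells, which carry class II themselves. The summed level of 12 B cell genes was 1324 to 2683 CPM in the peritoneal cavity, 51.9 to 89.4 CPM in the thymus and 449 to 1353 CPM in the spleen, beside 1082 to 4689, 6.43 to 37.6 and 311 to 1007 CPM for the sum of H2-Aa, H2-Ab1 and H2-Eb1. All 12 exceeded 1 CPM in every peritoneal and splenic library, and 4 to 7 did in the thymus, where the defining gene Pax5 had at most 0.0575 CPM. The ratio of the class II chains to the B cell sum was 0.717, 0.952 and 0.817 in peritoneal dDC 1, dDC 2 and control 1 and 0.632 to 0.803 in the 6 spleen libraries. It was 1.87 in peritoneal control 2 and 0.0926 to 0.445 in the thymus. The B cell genes were called in 2 of 12 between peritoneal cavity and spleen (median 1.41 in log2), with 11 of 12 lower in thymus than in spleen and 11 of 12 higher in peritoneal cavity than in thymus. In bulk RNA, fewer cells of a type and less RNA per cell cannot be told apart, and the part of B cells in the class II results was not tested.

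**Figure D4:**
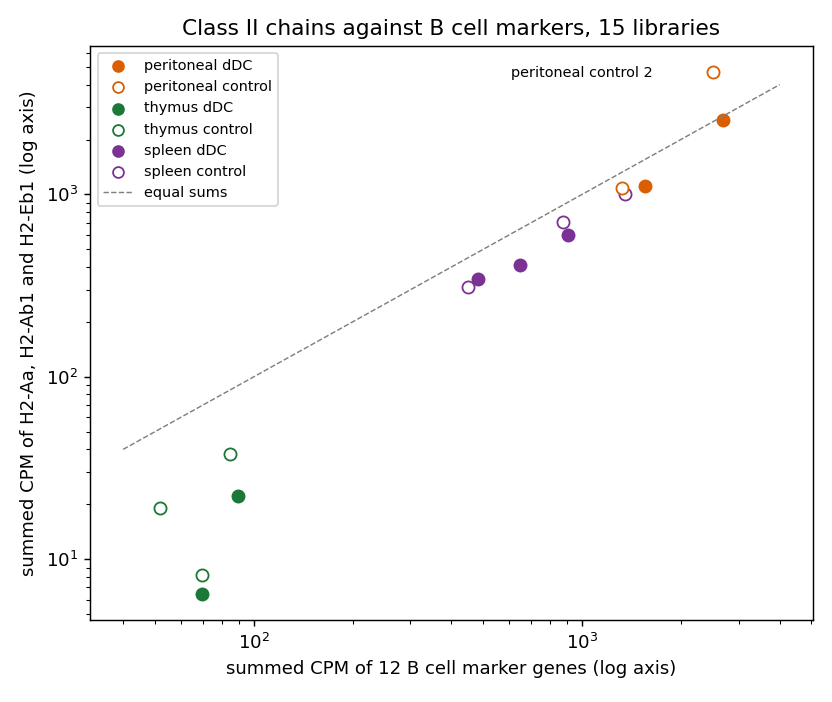
Summed CPM of H2-Aa, H2-Ab1 and H2-Eb1 against summed CPM of 12 B cell genes, 1 point per library, on log axes. The peritoneal and splenic libraries lie along one diagonal, peritoneal control 2 lies above it at a ratio of 1.87, and the 5 thymus libraries lie far below.

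Marker genes of macrophages and dendritic cells were summed as well. Sums of different gene lists do not compare shares of cells. The 12 macrophage genes added up to 61.0 to 1698 CPM in the peritoneal cavity, the highest being peritoneal control 2, 4.31 to 30.1 CPM in the thymus and 107 to 385 CPM in the spleen. The 10 dendritic cell genes added up to 56.8 to 255 CPM, 8.76 to 47.3 CPM and 22.1 to 43.5 CPM at these sites. Dendritic genes were called higher in 1 of 10 between peritoneal cavity and spleen and in 3 of 10 between peritoneal cavity and thymus. Their median log2 differences were 2.41 and 4.48. Macrophage genes were called in 0 and 2 of the 11 tested, with medians of -0.70 and 4.88. The defining macrophage gene Adgre1 was at 0 in 4 of 5 thymus libraries. The part of these cells in the class II results was not tested either.

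The comparison of dDC with control mice asks whether the genotype moved the pathway in Tregs, and it called 0 of the 37 genes in any tissue or on average by edgeR. Of all genes, 0.076% were called on average, 0% in spleen, 0% in thymus and 0.00543% in the peritoneal cavity. At an unadjusted p under 0.05, edgeR had 7 of the 37 on average, 3 in spleen, 3 in thymus and 4 in the peritoneal cavity, against 1715, 786, 1211 and 1171 of 18423 genes. By limma the counts of calls were 0 in all 4 comparisons, and by DESeq2 they were 3 on average (Tap1, Canx and Ciita), 1 in thymus (Ciita) and 0 in spleen and the peritoneal cavity. The median log2 difference on average over tissues was 0.09 for class I, -0.39 for class II (-0.35 without Ciita, and -0.13 over all 10 without peritoneal control 2) and -0.02 for all genes.

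Tap1 came nearest to the threshold on average. It had 166 and 188 CPM in dDC against 213 and 263 CPM in control peritoneal Tregs, 356 and 374 CPM in dDC against 442, 421 and 451 CPM in control thymic Tregs, and 276, 320 and 340 CPM in dDC against 345, 358 and 417 CPM in control splenic Tregs. Every dDC library lay below every control library of its tissue, although edgeR gave -0.32 ± 0.08 in log2 with an adjusted p of 0.199 (unadjusted 0.00123) and DESeq2 -0.33 with 0.00985. Separate ranges are common in groups this small, at 34.1% of all genes in the peritoneal cavity, 19.4% in the thymus and 10.1% in the spleen. The chaperone Canx had 490 and 517 CPM in dDC against 406 and 362 CPM in control peritoneal Tregs, 564 and 435 CPM in dDC against 419, 456 and 408 CPM in control thymic Tregs, and 591, 565 and 539 CPM in dDC against 513, 466 and 501 CPM in control splenic Tregs (average 0.27, edgeR adjusted p = 0.217, DESeq2 0.0282). Its dDC libraries were all above the controls in the peritoneal cavity and spleen and overlapped with them in the thymus.

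By tissue, separate ranges of dDC and control libraries were found for 12 of 37 genes in the peritoneal cavity, 11 in the thymus and 5 in the spleen, shares to be read against the percentages of all genes given above. In peritoneal Tregs H2-M3, Tapbp, Erap1, Calr, Canx, Rfxap and Rfxank lay above and H2-T23, H2-Q6, Tap1, Psmb9 and H2-Ob below. Calr had 220 and 184 CPM in dDC and 142 and 115 CPM in control libraries, and its difference of 0.65 ± 0.18 had the smallest adjusted p there (edgeR 0.465). In thymic Tregs H2-T23, H2-Q4, Tap2, Psmb10, Psme1 and Psme2 lay above and Tap1, Nlrc5, H2-Eb1, Ciita and Rfxap below. H2-T23 had 1283 and 1158 CPM in dDC and 1003, 928 and 964 CPM in control thymic Tregs (0.34 ± 0.09, edgeR adjusted p = 0.746). In splenic Tregs Canx lay above and H2-T22, Tap1, Ciita and Rfx5 below, all with an adjusted p of 1.

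**Figure D5:**
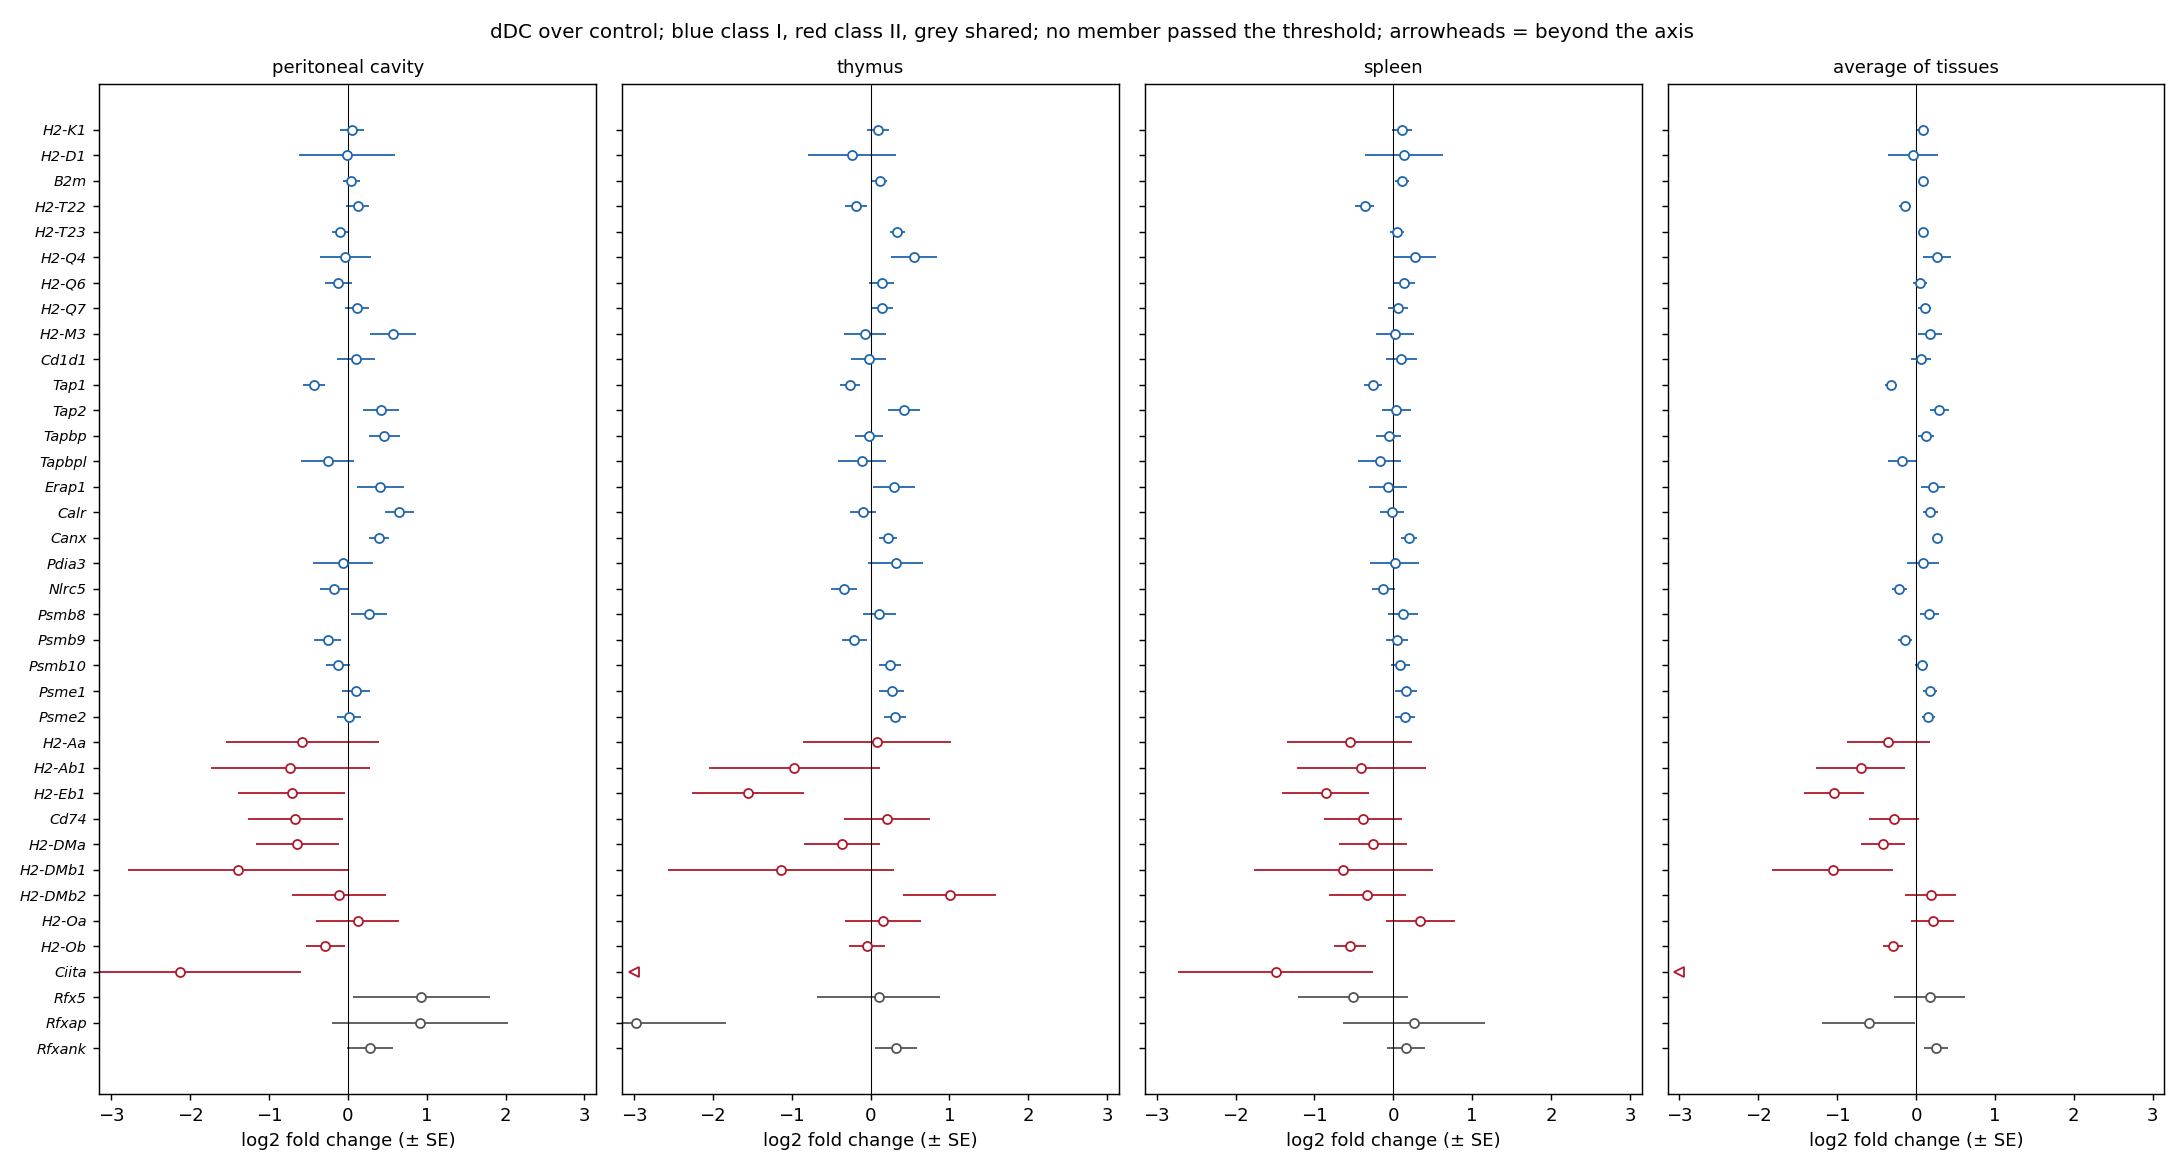
Log2 differences between dDC and control Tregs with standard errors for the 37 genes, in peritoneal cavity, thymus, spleen and on average, with arrowheads where a value runs past 3. No gene is filled, that is, none has an edgeR adjusted p under 0.05, and most class II genes, Rfx5 and Rfxap have longer error bars than the class I genes other than H2-D1.

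No class II gene was called between dDC and control Tregs, and the direction of the peritoneal estimates rested on 1 library. H2-Eb1 was nearest among the chains, with 2.30 and 3.49 CPM in dDC against 9.20, 11.1 and 5.29 CPM in control thymic Tregs and an average of -1.04 ± 0.38 over tissues (edgeR adjusted p = 0.422), against -0.59 (0.743) without peritoneal control 2. Medians over the 10 class II genes were -0.65 in the peritoneal cavity, -0.20 in the thymus (-0.04 without Ciita) and -0.48 in the spleen, beside 0.05, 0.11 and 0.06 for class I. In the peritoneal cavity 9 of 10 class II estimates were negative with all libraries, whereas without peritoneal control 2, the library with high Lyz2, 9 of 10 were positive and the median was 0.67. H2-Eb1 there had -0.71 with that library and 0.63 without it, and Cd74 -0.67 and 0.71. The B cell genes had medians of 0.11, -1.49 and -0.43 in the same comparisons, with 0 of 12 called in each, and their part in the class II estimates was not tested. Ciita had 11.4 and 10.4 CPM in dDC against 6.26 and 89.5 CPM in control peritoneal Tregs, where the highest value was again that library, and 0.427, 13.01 and 13.2 CPM in dDC against 15.98, 40.4 and 18.6 CPM in control splenic Tregs. DESeq2 called Ciita in the thymus (adjusted p = 0.00313), where both dDC libraries had no read, and edgeR did not (0.746).

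Whether the genotype difference itself differed between tissues was tested with interaction terms. None of the 37 genes was called in peritoneal cavity minus spleen, thymus minus spleen or peritoneal cavity minus thymus, where 0% of all genes were called in each. At an unadjusted p under 0.05, edgeR had 2, 3 and 3 of the 37, against 900, 932 and 1053 of all 18423 genes. The smallest edgeR adjusted p among the 37 was 0.998, 0.965 and 0.84. Tests of groups of 2 or 3 libraries have little precision for the class II genes, whose standard errors on average over tissues reached 1.15 for Ciita against 0.08 for Tap1.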

How the data were processed

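Bulk RNA-seq of sorted Tregs was deposited as 1 table of raw counts per gene for 15 libraries. The authors made these counts with bcl2fastq 2.19.1, GSNAP, mm10 and featureCounts 1.6.0, per the submitters' processing notes, from cDNA made by poly-dT priming and template switching, per the labels' protocols. That chemistry does not mark strand. How strand and multiply mapped reads were counted is not given in the sources used here. Genes with near copies are therefore less certain, among them H2-T22, H2-T23, Psme2, the H2-Q genes, Cd1d1, H2-DMb1 and H2-DMb2. The same holds for genes that share exon bases with a gene on the opposite strand. Examples are H2-T22 (29.4% of exon bases), Rfx5 (26.8%), Rfxank (24.5%), Tapbp (20.2%), H2-Q4 (19.1%), H2-Oa (15.2%) and Tap2 (14.1%). Tap1 (3.87%) and Psmb9 (5.79%) share bases with each other. Of its 45798 features, 92 were spike-ins, which had at most 6 reads. Symbols were found for 45143 of 45706 gene IDs (98.8%, GENCODE vM21).

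The counts as deposited were filtered with filterByExpr and scaled by TMM (factors 0.960 to 1.05) in R 4.3.3. The edgeR 4.0.16 quasi-likelihood test was fitted once, on 15 libraries, with 6 group means (9 residual degrees of freedom, median biological coefficient of variation 0.551), and p-values were adjusted by Benjamini-Hochberg over 18423 genes with a threshold of 0.05. All adjusted p are from this test unless limma 3.58.1 or DESeq2 1.42.0 is named. Log2 levels used a prior count of 2. Groups were read from the labels' cell type and tissue. Tissue comparisons weight both genotypes equally. The test was tried on simulated counts with known changes. Alternatives were another scaling, limma, DESeq2, no filter, each library left out, each tissue or genotype alone, and other score settings. All 37 genes are named, and of other pathway genes at most 6 per comparison, those past the threshold with the smallest p, though a few such results are not reported here. The genes, marker lists and tests were chosen with earlier results of these data known. Shared 50-base windows were counted in GENCODE transcripts.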

Additional observations from a re-analysis of the deposited data

How the results depend on the processing

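Of 39 gene calls between tissues, 10 were kept under every alternative run and 0 reversed. With each library left out in turn, the number of genes called was 10 to 17 between peritoneal cavity and spleen (10 without peritoneal control 2, 16 with all libraries), 5 to 6 between thymus and spleen, 15 to 20 between peritoneal cavity and thymus, and 0 for dDC against control. With dDC libraries alone as the contrast 5 genes were called between peritoneal cavity and spleen, and with control libraries alone 7, while dDC libraries alone gave 1 between thymus and spleen (5 with all) and 9 between peritoneal cavity and thymus (18 with all). Fewer libraries enter these contrasts. Between thymus and spleen limma called 1 gene and DESeq2 11, and DESeq2 called 3 for dDC on average and 1 in the thymus, against 0 by edgeR. The cause of these differences between tools was not tested.

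Calls between peritoneal cavity and spleen were lost without single libraries for these genes (edgeR adjusted p without that library in brackets). H2-T22 was lost without spleen dDC 1 (0.0531), 2 (0.0606) or 3 (0.0603), spleen control 3 (0.0625), peritoneal dDC 1 (0.115) or peritoneal control 1 (0.0535) or 2 (0.0937). Psmb9 was lost without spleen dDC 3 (0.0598), spleen control 1 (0.0554) or 3 (0.0511), peritoneal dDC 1 (0.0941) or peritoneal control 1 (0.053) or 2 (0.0822). H2-Eb1 was lost without spleen dDC 1 (0.0558) or 2 (0.0552), peritoneal dDC 2 (0.108) or peritoneal control 2 (0.111). Cd74 was lost without spleen dDC 1 (0.0906), 2 (0.0856) or 3 (0.0596), spleen control 1 (0.0697) or 3 (0.0765), thymus control 2 (0.0514), peritoneal dDC 2 (0.167) or peritoneal control 2 (0.203). H2-DMb2 was lost without spleen dDC 1 (0.0763) or 2 (0.0918), spleen control 1 (0.085) or 2 (0.0771), peritoneal dDC 1 (0.0574) or 2 (0.16) or peritoneal control 2 (0.167). Between peritoneal cavity and thymus, H2-DMa was also lost without peritoneal dDC 2 (0.0626) and Ciita without thymus dDC 2 (0.0783).

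With all class I against all class II genes, in place of the classical chains, the difference between the pathways was 0.86 in peritoneal dDC, 0.34 in peritoneal control, 5.92 in thymus dDC, 5.23 in thymus control, 2.61 in spleen dDC and 2.06 in spleen control libraries, with the tissues in the same order. Depth limits the lowest values: H2-DMb1 had 1 read in its lowest library, H2-Ab1 8 and Ciita 0.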

Other observations

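H2-D1 varied widely between libraries of 1 group. The ratio of H2-K1 to H2-D1, on the CPM scale, was 2.84 to 4.55 in the peritoneal cavity, 0.960 to 4.22 in the thymus and 1.55 to 3.36 in the spleen. In the thymus H2-D1 had 4536 and 1155 CPM in dDC libraries and 3561, 4134 and 2330 CPM in control libraries. Of its 50-base windows, 13.9% also occur in other genes. Pdia3 varied in the same way, with 253 and 145 CPM in dDC and 157, 217 and 104 CPM in control thymus libraries, and none of its windows occurs elsewhere.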
